A study of Caenorhabditis elegans with 4 samples.

Results

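Genes of DNA replication, the cell cycle and chromosome segregation were examined in whole Caenorhabditis elegans with and without low-dose arsenite. A list of 46 genes was matched by name to the deposited table of 19912 genes, and 44 of them were found there. The other two, orc-1 and cya-1, stand in the table under the sequence names Y39A1A.12 and ZK507.6. Their values are given beside the 44, which all counts below refer to. The worms were of the N2 wild type (var. Bristol) and were sampled as adults, 48 h after the L4 stage. Arsenite libraries came from plates with 100 nM arsenite (2 libraries), and control libraries from plates with the solvent water alone (2 libraries, 0 nM). Both kinds of plate were poured from the same batch of agar and carried heat-inactivated OP50 E. coli. Whole animals were extracted, so germ line, embryos inside the mother and somatic tissues are mixed in every library.

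Each division cycle begins with licensing, in which the origin recognition complex, CDC-6 and CDT-1 load the ring of MCM proteins that later unwinds the DNA. Cyclins with their kinases then drive the cell through DNA synthesis and mitosis, and in mitosis the kinetochore ties each chromosome to the spindle. C. elegans chromosomes are holocentric, which means that kinetochores form along their whole length. Somatic cells of the adult worm no longer divide, so in adults these genes are used mainly in the germ line and in embryos, whose first divisions run on RNA and protein laid down in the oocyte.

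The deposited gene counts summed to between 44263387 and 50472338 per library. The reads behind the deposited RPKM values numbered between 30583832 and 35218389. The totals differ because a gene's count adds up its transcripts, so a shared read counts more than once. Across 13776 genes that passed the filter on low counts, the quasi-likelihood test of edgeR called 0 genes higher and 0 lower with arsenite at an adjusted p of 0.05, with 298 and 695 at that level without adjustment. The exact test of edgeR called 54 higher and 85 lower, its likelihood ratio test 58 and 99, and DESeq2 8 and 22. Below, "edgeR adjusted p" is from the quasi-likelihood test and SE is the standard error of a log2 fold change. No source used here states that replicates were separate cultures, so p-values measure the spread between these libraries, which may be technical. All 44 members passed the filter, with counts from 904 to 75735 per library.

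Most of the genes were abundant messages. Their RPKM, which is the read number divided by transcript length and by the mapped reads of the library, had a median of 94.6 over the 44 members, against 11.9 over all genes tested, and the median member stood at percentile 91.4 of the genes tested. The mitotic cyclin cyb-3 had the highest level, with an RPKM of 724 ± 66 (SD, n = 2) in control worms. It was followed by rnr-2, the small subunit of ribonucleotide reductase, at 547 ± 4.1 (SD, n = 2), and by pcn-1, the sliding clamp PCNA of the replication fork, at 525 ± 38.9 (SD, n = 2). The ranges of rnr-2 and pcn-1 over the 4 libraries overlapped, from 526 to 559 and from 497 to 552, while cyb-3 with 677 to 770 lay above both. The lowest levels belonged to the G1 pair cyd-1 (cyclin D), at 14.1 ± 0.89 (SD, n = 2), and its kinase cdk-4, at 14.6 ± 0.27 (SD, n = 2), and their ranges also overlapped. Highest and lowest mean levels lay 51.2-fold apart. Along the order of levels, 30 of 43 neighbouring pairs had overlapping ranges, so most steps in it were no larger than the spread between libraries.

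**Figure D1:**
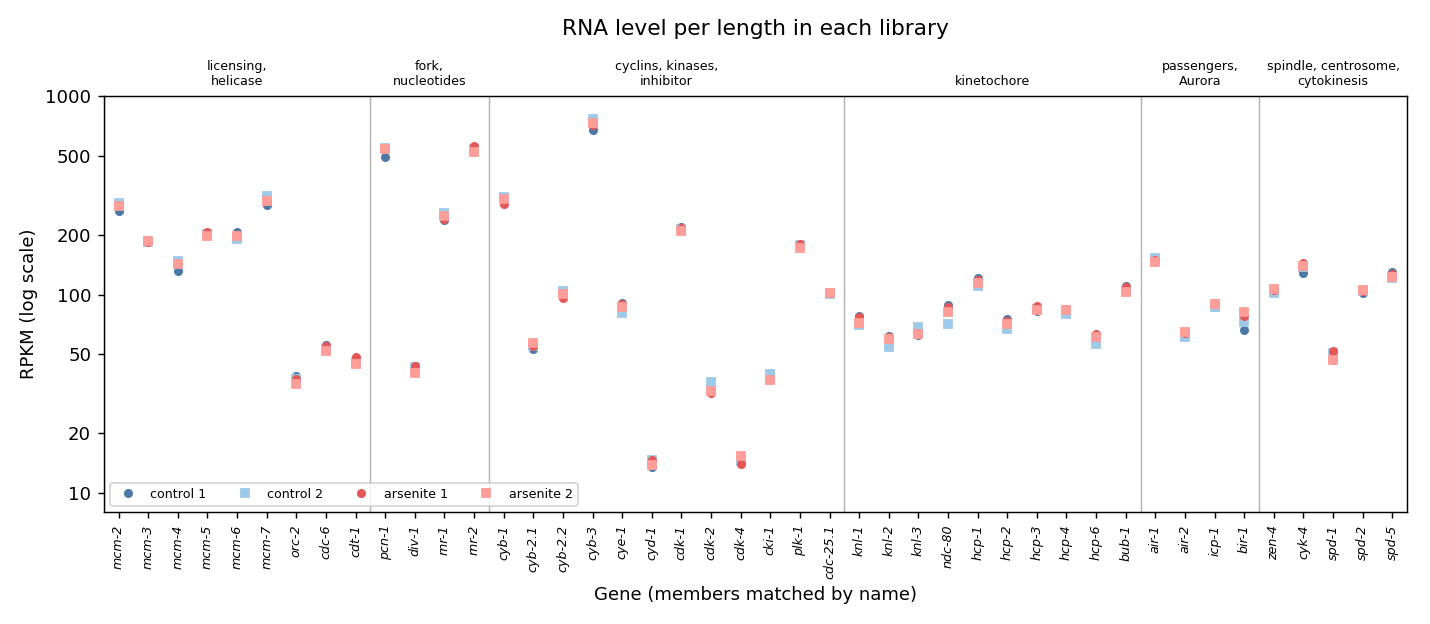
RPKM on a log axis of the 44 members, grouped by role, with 1 point for each of the 4 libraries (control 1 and 2 in blue, arsenite 1 and 2 in red). The cyclin cyb-3 stands highest at 677 to 770 and the pair cyd-1 and cdk-4 lowest near 14, and the points of a gene lie close together compared with the distances between genes.

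The comparison with arsenite asked whether worms exposed for 48 h held more or less RNA of this machinery. None of the 44 members passed the quasi-likelihood test after adjustment (0 of 44, against 0% of all genes tested), and none passed in the exact test (0.392% of all genes higher and 0.617% lower), the likelihood ratio test (0.421% and 0.719%) or DESeq2 (0.0581% and 0.16%). At an unadjusted p under 0.05 there was 1 gene with a positive log2 fold change, bir-1, and 0 with a negative one, beside 2.16% and 5.05% of all genes tested. That count of 1 rose when either control replicate was left out, and so did the count over all genes tested. Without arsenite replicate 2 both counts fell. The fold changes were small. Their median on the log2 scale was 0.052, a difference of 3.65%, against 0.0055 over all genes tested, and they ran from -0.069 for cdk-2 to 0.25 for bir-1. Of the 44, 39 (88.6%) had a positive fold change, against 51.8% of all genes tested. With libraries scaled by their totals alone, the share was 26 of 44 (59.1%) against 36.3%, and the median was 0.012 against -0.034. Without control replicate 1 it was 28 of 44 (63.6%) against 49.7%, with a median of 0.032. Both arsenite libraries stood above both controls for 19 of the 44, and below them for 1, where all genes tested gave 17.1% and 19.1%. The share above, 43.2%, is a description of these 4 libraries.

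**Figure D2:**
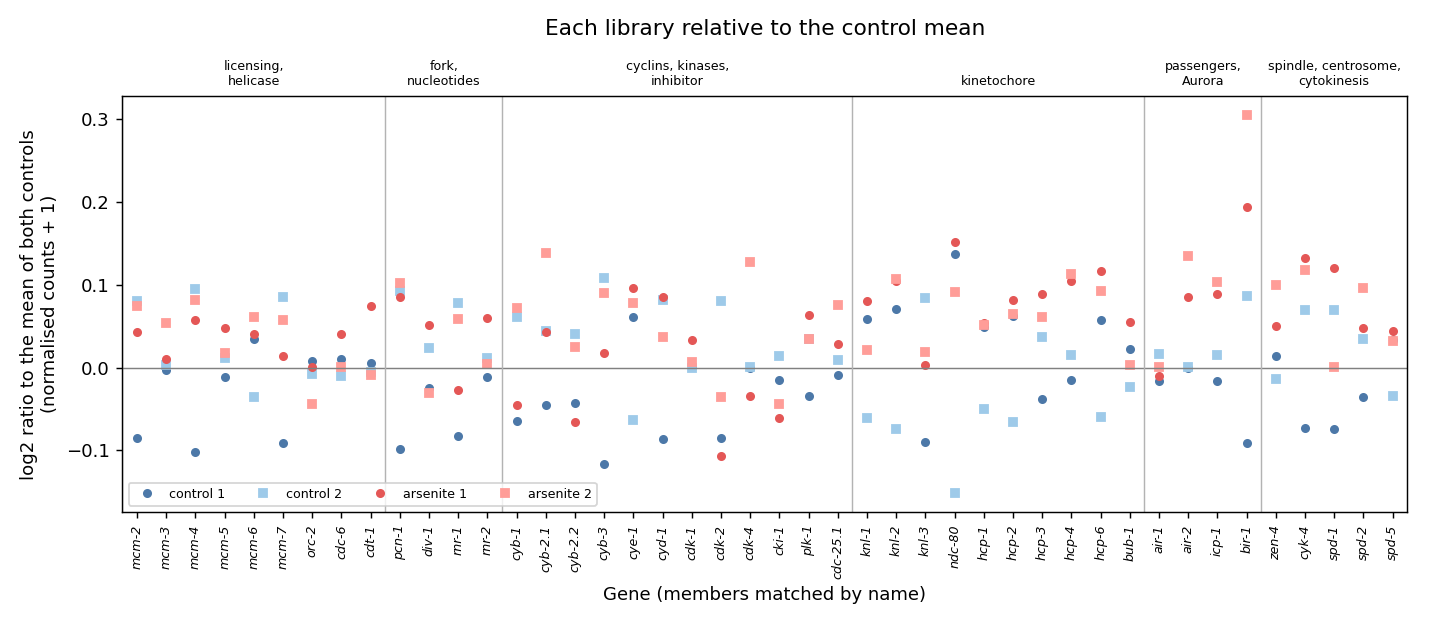
Log2 ratio of each library to the mean of both controls, from normalised counts with a pseudocount of 1, for the 44 members. Blue points are control 1 and 2, red points arsenite 1 and 2. Apart from bir-1, the red points of most genes lie among or slightly above the blue ones. Both red points lie slightly below for cki-1, and 1 red point does for orc-2, cdt-1, div-1, cyb-2.2, cdk-2 and cdk-4. The controls of ndc-80, cyb-3 and mcm-4 lie further apart than their arsenite libraries.

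The data also bound how large a change could have been missed. The 95% interval of the fold change, from the same fit and for each gene on its own, included 0 in 43 of 44 genes, with bir-1 as the exception. Over those 43 genes no interval reached below -0.25 or above 0.32 on the log2 scale. The widest intervals belonged to ndc-80, from -0.075 to 0.32, and to the thinly expressed cyd-1, from -0.13 to 0.25. Without control replicate 1 the fitted value of ndc-80 was 0.27, so that its bound rests on that library.

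**Figure D3:**
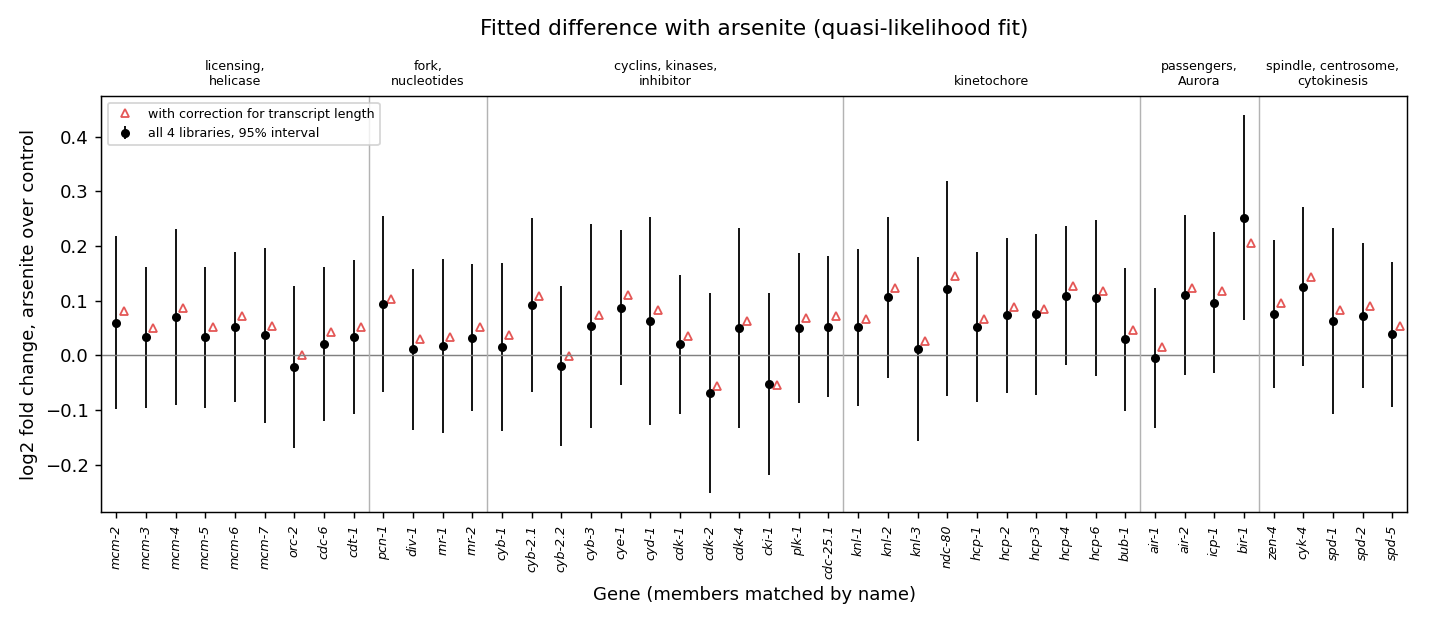
Log2 fold change of arsenite over control for the 44 members (black, with 95% intervals from the quasi-likelihood fit) and the same value after a correction for transcript length (red triangles). The interval of bir-1, from 0.065 to 0.44, is the only one of the 44 that does not include 0.

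The genes that license origins were represented by 9 members, and 8 of them had a positive fold change, with a median of 0.033. With libraries scaled by their totals alone 3 of 9 were positive, against 36.3% of all genes tested. Without control replicate 1 it was 5 of 9, against 49.7%. Levels of the 6 helicase subunits in control worms were 278 ± 17.1 RPKM (SD, n = 2) for mcm-2 as a gene, 187 ± 3.05 for mcm-3, 140 ± 10.8 for mcm-4, 204 ± 1.66 for mcm-5, 199 ± 10.5 for mcm-6 and 299 ± 20.1 for mcm-7. The value of mcm-2 depends on the transcript, since its 2 forms share nearly all reads: the form of 2814 nt had an RPKM of 170 and 186 in controls 1 and 2, and that of 796 nt 602 and 657, so its place in this order is uncertain. The loaders lay well below them, with 38.1 ± 1.03 for orc-2, a subunit of the origin recognition complex, 54.3 ± 1.57 for cdc-6 and 46.6 ± 1.14 for cdt-1 (SD, n = 2 each). Normalised counts of mcm-4 were 11133 and 12753 in controls 1 and 2, and 12428 and 12634 in arsenite 1 and 2. Control 1 was thus the low library, while control 2 was the highest of all. The log2 fold change of mcm-4 was 0.070 (SE 0.072, edgeR adjusted p = 0.931). For mcm-2 the normalised counts were 30525 and 34215 in the controls, and 33357 and 34090 with arsenite. Again the controls spanned the arsenite libraries, and the log2 fold change was 0.059 (SE 0.071, edgeR adjusted p = 0.942). Without control replicate 1 the values of mcm-4 and mcm-2 turned to -0.028 and -0.023. Fold changes of the remaining helicase subunits were 0.033 for mcm-3, 0.033 for mcm-5, 0.051 for mcm-6 and 0.036 for mcm-7, and those of cdc-6, cdt-1 and orc-2 were 0.021, 0.033 and -0.022. The gene orc-1, which the name match had missed, codes for the largest subunit of the origin recognition complex and had normalised counts of 6591 and 6430.5 in controls and 6834 and 6802 with arsenite, a log2 fold change equal to 0.066 (SE 0.057, edgeR adjusted p = 0.91).

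At the replication fork and in the supply of nucleotides, the 4 members had positive fold changes of 0.011 to 0.094, and in all 4 genes the ranges of the groups overlapped. Scaled by library totals alone, or without control replicate 1, 1 of the 4 stayed positive, against 36.3% and 49.7% of all genes tested. For pcn-1 the normalised counts were 15631 and 17834 in controls 1 and 2, against 17744 and 17963 in arsenite 1 and 2. Control 1 alone was low, and the log2 fold change of 0.094 (SE 0.072, edgeR adjusted p = 0.888) became -0.00075 without it. The ribonucleotide reductase gene rnr-2 had 24348 and 24746 in the controls and 25582 and 24624 with arsenite, where arsenite 1 was the high library. Its log2 fold change was 0.032 (SE 0.06, edgeR adjusted p = 0.96). The large subunit of the same enzyme, rnr-1, had a log2 fold change of 0.017, at a level of 249 ± 14.9 RPKM (SD, n = 2) in control worms. The fourth gene, div-1, a subunit of DNA polymerase alpha-primase that starts new strands, had a log2 fold change of 0.011 at a level of 43 ± 0.19 RPKM (SD, n = 2).

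Of the 12 members among cyclins, kinases and their regulators, 9 had a positive and 3 a negative fold change, with a median of 0.05. By library totals alone 7 were positive, and without control replicate 1 6, against 36.3% and 49.7% of all genes tested. The most abundant, cyb-3, a B-type cyclin of mitosis, had normalised counts of 62709 and 73287 in controls 1 and 2, and 68826 and 72356 in arsenite 1 and 2. Both arsenite libraries fell between the controls. The log2 fold change of cyb-3 was 0.054 (SE 0.083, edgeR adjusted p = 0.951), and -0.056 without control replicate 1. Among the other B-type cyclins, cyb-1 had a log2 fold change of 0.015, cyb-2.1 of 0.092 and cyb-2.2 of -0.019. The genes cyb-2.1 and cyb-2.2 are close copies of each other, and only uniquely mapped reads were counted, so their levels and the split between them are uncertain. For cyb-2.1 the normalised counts were 2146.5 and 2283 in controls, and 2282.5 and 2438 with arsenite. Control 2 and arsenite 1 were nearly level there, and the SE of the fold change was 0.071 (edgeR adjusted p = 0.888).

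Cyclin E and its kinase act at the entry into DNA synthesis. The cyclin gene cye-1 had normalised counts of 10532 and 9666 in controls, and 10797 and 10664 with arsenite, so that both arsenite libraries lay above both controls. Its log2 fold change was 0.087 (SE 0.063, edgeR adjusted p = 0.872) and 0.027 without control replicate 2. The kinase gene cdk-2 had the most negative value of all members, -0.069 (SE 0.082, edgeR adjusted p = 0.942), with overlapping groups. In G1, cyd-1 had normalised counts of 862 and 968 in controls and 971 and 939 with arsenite, a log2 fold change equal to 0.062 (SE 0.085, edgeR adjusted p = 0.945) with control 1 as the low library. Its partner cdk-4 had a log2 fold change of 0.05. The inhibitor cki-1, a relative of mammalian p27 that holds cells in G1, was the gene whose arsenite libraries both lay below both controls, with normalised counts of 1028 and 1049 in controls and 996 and 1007 with arsenite. The gap was small, and the log2 fold change of cki-1 was -0.052 (SE 0.074, edgeR adjusted p = 0.948). Of the mitotic kinases and their activator, cdk-1 had a log2 fold change of 0.02, plk-1 (Polo-like kinase) of 0.05 and cdc-25.1, a phosphatase that activates CDK-1, of 0.052. The cyclin A gene cya-1, not matched by name, had normalised counts of 4665 and 4655 in controls and 4836.5 and 4772 with arsenite, and a log2 fold change equal to 0.044 (SE 0.059, edgeR adjusted p = 0.944).

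All 10 genes of the kinetochore group had a positive fold change, with a median of 0.074. With libraries scaled by their totals alone 8 of 10 were positive, against 36.3% of all genes tested. Without control replicate 1 it was 9 of 10, against 49.7%, and without control replicate 2 8 of 10, against 49.1%. The difference between the controls exceeded the fold change in 8 of the 10 genes, against 62.8% of all genes tested. In 6 of the 10 genes, against 17.1% of all genes tested, both arsenite libraries lay above both controls. The CENP-C homologue hcp-4, which sits at the base of the kinetochore, had normalised counts of 7080 and 7232 in controls 1 and 2, and 7692 and 7740.5 in arsenite 1 and 2. Replicates were close and the groups did not overlap. The log2 fold change of hcp-4 was 0.11 (SE 0.057, 95% interval -0.019 to 0.24, edgeR adjusted p = 0.76), and 0.091 to 0.12 with any 1 library left out. The gene hcp-6 codes for a subunit of condensin, which compacts chromosomes, and had normalised counts of 21078 and 19436 in controls and 21957 and 21597 with arsenite. Here control 2 was low, and the log2 fold change of 0.1 (SE 0.064, edgeR adjusted p = 0.812) was 0.047 without it. For the CENP-A homologue hcp-3, the histone that marks the kinetochore, the log2 fold change was 0.075, and for knl-2, which is needed to place it, 0.11. The related genes hcp-1 and hcp-2, similar to CENP-F, had 0.052 and 0.073. Reads of hcp-3 that match its close copy cpar-1 would not have been counted, so its level is uncertain.

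In the outer kinetochore, which binds microtubules, knl-1 had a log2 fold change of 0.051, knl-3 of 0.011 and ndc-80 of 0.12. The controls of ndc-80 stood further apart than those of any other member, with normalised counts of 5509 and 4510 in controls 1 and 2 against 5565 and 5339 in arsenite 1 and 2. Control 1 lay inside the range of the arsenite libraries and control 2 below it. Without control replicate 1 the log2 fold change of ndc-80 was 0.27 (edgeR adjusted p = 0.0234), the only call for a member in any fit that left out 1 library, and without control replicate 2 it was -0.015. That fit called 0.863% of all genes higher and 0.514% lower. With control replicate 2 left out instead, 0.0071% and 0.0071% were called, with arsenite replicate 1 left out 0.711% and 0.412%, and for arsenite replicate 2 the shares were 0.0426% and 0.0568%, with 0 members in each. The checkpoint kinase bub-1 had a log2 fold change of 0.029, at a level of 107 ± 4.47 RPKM (SD, n = 2) in control worms.

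The chromosomal passenger complex corrects faulty attachments and acts in cytokinesis. Its subunit bir-1, the homologue of survivin (chromosome V, 11644760 to 11645370, WBcel235), had the largest fold change of all members. Normalised counts of bir-1 were 1192 and 1348 in controls 1 and 2, and 1453 and 1569 in arsenite 1 and 2. Both arsenite libraries lay above both controls, with a gap smaller than the difference between the controls. On the log2 scale the change was 0.25 (SE 0.084, with a 95% interval of 0.065 to 0.44, p = 0.0134 and edgeR adjusted p = 0.481, exact test adjusted p = 0.305), which is 19.1% more. With any 1 library left out it ran from 0.16 without control replicate 1 to 0.34 without control replicate 2, and no adjusted p passed. The partners of bir-1 had smaller values. The Aurora B kinase gene air-2 had normalised counts of 2221 and 2223 in controls and 2358 and 2439 with arsenite. Its groups did not overlap, and the log2 fold change was 0.11 (SE 0.066, edgeR adjusted p = 0.811). The INCENP homologue icp-1, the scaffold of the complex, had 5826 and 5954 in controls and 6265 and 6328.5 with arsenite, a log2 fold change equal to 0.096 (SE 0.058, edgeR adjusted p = 0.811). Aurora A, the centrosomal kinase encoded by air-1, had a log2 fold change of -0.0049 with overlapping groups.

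Genes of the spindle, the centrosome and cytokinesis gave 5 members, all with positive fold changes of 0.038 to 0.13. By library totals alone 4 of 5 were positive, and without control replicate 1 also 4 of 5, against 36.3% and 49.7% of all genes tested. The cytokinesis gene cyk-4 had normalised counts of 9515 and 10504 in controls 1 and 2, and 10969 and 10863 in arsenite 1 and 2. The groups did not overlap, and the log2 fold change of cyk-4 was 0.13 (SE 0.065, edgeR adjusted p = 0.759), with 0.053 without control replicate 1. Its kinesin partner in the centralspindlin complex, zen-4, had 26624 and 26124 in controls and 27308 and 28268 with arsenite, a log2 fold change equal to 0.075 (SE 0.061, edgeR adjusted p = 0.898). The midzone protein gene spd-1 had a log2 fold change of 0.062 with overlapping groups. The centrosome genes spd-2 and spd-5, whose products build the material around the centrioles, had 0.073 and 0.038.

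The controls differed from each other by more than the groups did in many of these genes, at a share near that of all genes. The difference between control replicates exceeded the fold change with arsenite in 26 of 44 members (59.1%), against 62.8% of all genes tested. A difference between single libraries also varies more than one between group means, so these are unlike measures. The median size of the log2 difference between controls was 0.079 and that between arsenite replicates 0.043, beside a median size of the fold change of 0.052. Over all genes tested these sizes were 0.13, 0.088 and 0.080. The direction of the control difference varied with role. Control 2 was higher than control 1 in all 4 genes of fork and nucleotides, with a median log2 difference of 0.1, and in 10 of 12 of the cyclin and kinase group. In the kinetochore group it was higher in 3 of 10 genes, with a median of -0.11. Members of the latter group are long, with a median transcript length of 3029.5 nt against 2058 nt over all members, and over the 44 genes of these 2 libraries Spearman's rank correlation between length and the control difference was -0.45. It was 0.45 within the 9 licensing genes, -0.15 over the pathway list described next and -0.064 over all genes tested. For the fold change with arsenite, the rank correlation with length was 0.15 over the members, -0.027 over that list and -0.15 over all genes tested. Genes share these libraries and are no independent replicates.

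The other genes of the same machinery behaved much like the members. A list of 144 further genes of replication, cell cycle control, chromosome structure, spindle and cytokinesis had 140 in the table and 139 that passed the filter. After adjustment 0 of these passed any of the 4 tests named above, while 4 had a positive and 0 a negative fold change at an unadjusted p under 0.05, beside 2.16% and 5.05% of all genes tested. That count of 4 also rose when either control replicate was left out, as did the count over all genes tested. Without arsenite replicate 2 both counts fell. The median log2 fold change of the list was 0.054, and 123 of 139 (88.5%) were positive, against 51.8% of all genes tested. With libraries scaled by their totals alone 90 (64.7%) were positive, against 36.3%. For 63 of the 139 genes (45.3%, against 17.1% of all genes tested) both arsenite libraries stood above both controls, and for 2 (1.44%, against 19.1%) below. By role, 33 of 34 genes of licensing and fork, 31 of 38 of cycle control, 31 of 36 of kinetochore and chromosomes and 28 of 31 of spindle and cytokinesis were positive. Without control replicate 1 the log2 fold changes of the topoisomerase gene top-1 and the histone chaperone gene chaf-1 were 0.31 and 0.28. Without control replicate 2 they were -0.023 and -0.087.

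The kinetochore gene kbp-4 had the largest value of that list. It is on chromosome III from 1080901 to 1081300 and codes for a small subunit of the outer kinetochore, and the study lists it as changed on these same samples, so it is no independent evidence. Normalised counts of kbp-4 were 521 and 450 in controls 1 and 2, and 578 and 720 in arsenite 1 and 2. Arsenite 2 was the high library. The log2 fold change of kbp-4 was 0.42 (SE 0.12, p = 0.00695 and edgeR adjusted p = 0.409, exact test adjusted p = 0.118). It was 0.25 without arsenite replicate 2 and 0.57 without arsenite replicate 1 (edgeR adjusted p = 0.013), and 0.53 without control replicate 1 (edgeR adjusted p = 0.0428). Its partner kbp-3, also a subunit of the outer kinetochore, had normalised counts of 1154 and 936 in controls and 1255 and 1358 with arsenite, a log2 fold change equal to 0.32 (SE 0.1, edgeR adjusted p = 0.446). Control 2 was the low library of kbp-3, and the value was 0.18 without it and 0.48 without control replicate 1 (edgeR adjusted p = 0.00729).

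Next in order of p were the fork protection gene tipn-1 (F23C8.9) with a log2 fold change of 0.22, the centriole gene sas-7 with 0.15, mzt-1, a small partner of gamma-tubulin, with 0.26 and the microtubule depolymerase gene klp-7 with 0.13. Their edgeR adjusted p ran from 0.605 to 0.72. The groups did not overlap for any of the 4, with arsenite higher, against 17.1% of all genes tested and 45.3% of the list. These 4 were taken for their small p, which favours groups that do not overlap.

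Several of the larger values belonged to short transcripts. When all genes tested were ordered into deciles of length, the decile of shortest transcripts (540 nt or less) had a median log2 fold change of 0.094, the next one (up to 719 nt) 0.028, and the remaining deciles between -0.013 and 0.0096. With 568 nt, bir-1 was the shortest member and the only one in the second decile. Transcripts of kbp-4, mzt-1 and kbp-3 measured 308, 440 and 481 nt and fell in the first. Other short genes of the list had smaller values, with 0.057 for kbp-2 (375 nt) and 0.029 for kbp-5 (551 nt), which were picked out after their values were seen. After a correction of each library for transcript length the log2 fold change of bir-1 was 0.21 (SE 0.077), that of kbp-4 0.27, that of kbp-3 0.24 and that of tipn-1, with 824 nt, 0.21. The median of the members was then 0.070, and 41 of 44 were positive. The part of length in these values beyond this correction was not tested.

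**Figure D4:**
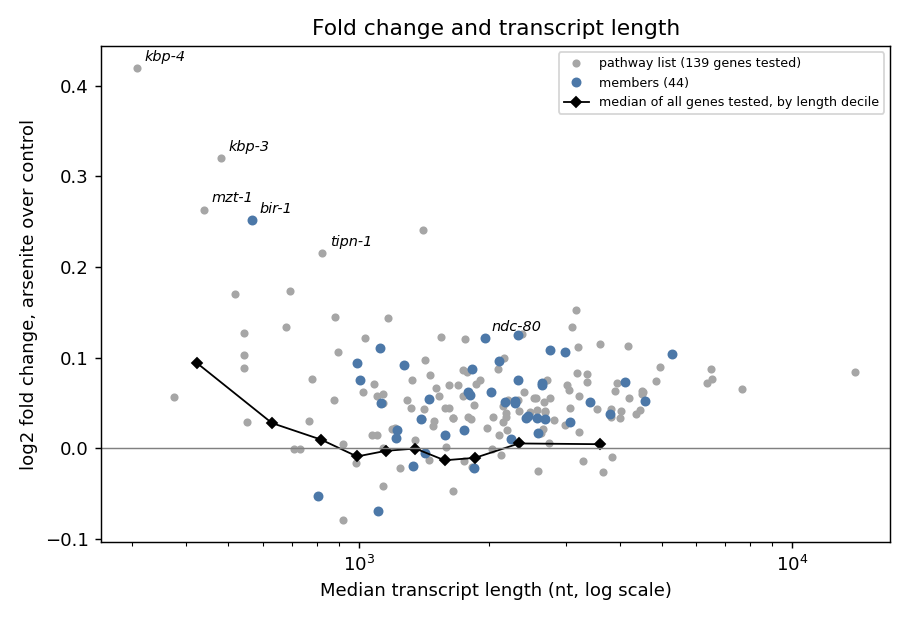
Log2 fold change of arsenite over control against median transcript length on a log axis, for the 44 members (blue), the 139 tested genes of the pathway list (grey) and the median of all genes tested in each decile of length (black diamonds). The largest values belong to short transcripts, kbp-4, kbp-3, mzt-1 and bir-1, and the other 43 members lie between -0.069 and 0.13.

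Markers of the tissues were read beside these genes, since a whole-worm library mixes them. In bulk samples such as these, fewer cells of a type and less RNA per cell cannot be told apart. Germ line markers had a median log2 fold change of 0.065, with 16 of 18 positive, and those of oocyte and early embryo 0.086, with 17 of 17 positive (glp-1 stands in both lists). Their summed RPKM was 2559 and 2694 in controls against 2663 and 2691 with arsenite for the germ line, and 6347 and 6947 against 6868 and 6821 for the oocyte, so that the groups overlapped in both sums. Intestinal markers also had a positive median, 0.050, with 8 of 14 positive (57.1%, against 51.8% of all genes tested). The positive ones were vit-1 to vit-6, asp-1 and cpr-6, and the negative ones ges-1, elt-2, ifb-2, act-5, opt-2 and cpr-1. Sums of the list were 23760 and 26500 in controls against 24910 and 27920 with arsenite. In the lists of pharynx, muscle and neurons most values were negative. All 8 pharynx markers had a negative value, against 6634 of all 13776 genes tested. In all 8 both arsenite libraries lay below both controls, against 19.1% of all genes tested. Their median was -0.30, and their summed RPKM was 155.4 and 151.7 in controls against 125.9 and 115.8 with arsenite. Of 10 markers of body wall muscle 9 were negative (median -0.12, summed RPKM 1303 and 1310 against 1228 and 1162), and of 10 of neurons 8 were negative (median -0.20, summed RPKM 346 and 335 against 324.5 and 308). Epidermal markers had 6 of 10 negative and a median of -0.12, with summed RPKM of 384 to 400.2 and overlapping groups in that sum.

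Genes switched on in the embryo itself had 9 of 12 markers past the filter, 6 of them negative, with summed RPKM of 91.5 and 90.5 in controls against 88.4 and 84.6 with arsenite. Of 32 sperm markers, which are largely close copies of each other, 4 passed the filter and 7 had no read in any library, with sums of 31.3 to 35.6. No marker of any list passed the quasi-likelihood test after adjustment, while 4 of pharynx (all lower) and 3 of epidermis (nlp-29 higher, col-10 and bus-8 lower) passed the exact test, beside 0.392% of all genes higher and 0.617% lower. The small positive median of the replication and kinetochore genes thus stood beside positive medians of germ line and oocyte markers. The intestinal median was positive as well, but with 57.1% of its markers positive, near the 51.8% of all genes tested, and vit-1 to vit-6 among them. Over the 9 tested markers of genes switched on in the embryo itself the median was -0.042, which is the value of pha-4. Of these 9, pes-10, end-3 and sdz-28 were positive, and in 7 the groups overlapped. Whether these markers were read from embryos alone was not tested. The part of tissue proportions in the median of the replication and kinetochore genes was not tested.

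**Figure D5:**
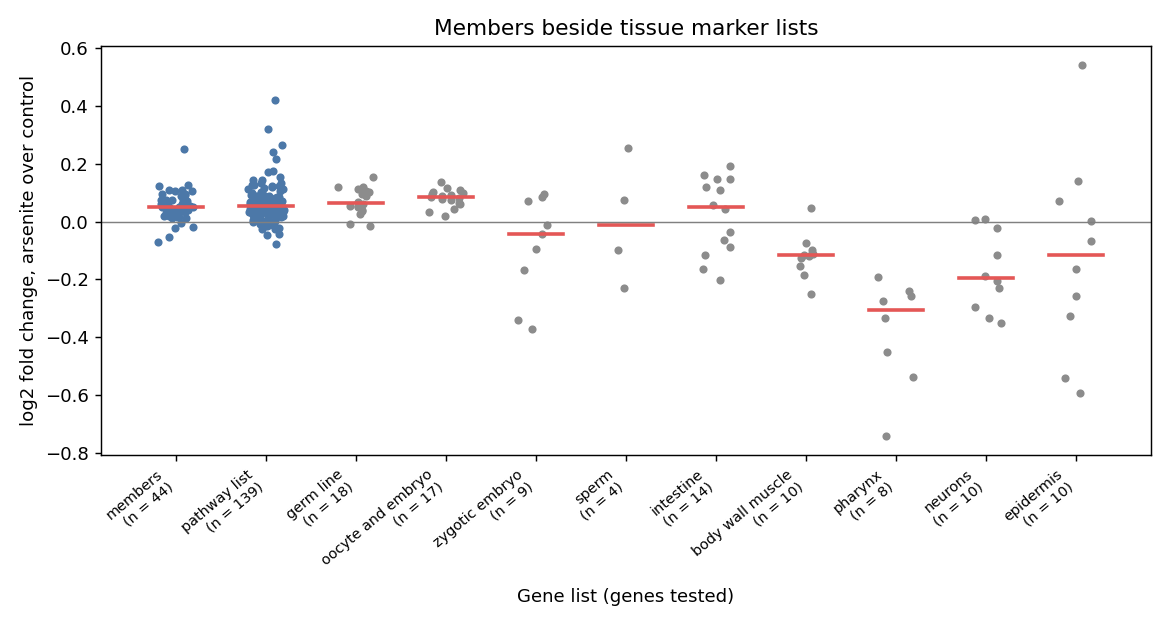
Log2 fold change of arsenite over control for each tested gene of the 44 members, the pathway list and the tissue marker lists, with red bars at the median of each list. The medians of members (0.052), pathway list (0.054), germ line (0.065), oocyte (0.086) and intestine (0.050) lie above 0. Below it lie those of pharynx (-0.30), neurons (-0.20), body wall muscle (-0.12), epidermis (-0.12), zygotic embryo (-0.042) and sperm (-0.012).

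The members lay on all 6 chromosomes, in unequal shares that were not tested. On chromosome X lay 1 of 44 members (2.27%), cdk-4, against 15.2% of the 13085 genes tested whose chromosome is known from RefSeq on WBcel235. Chromosome I held 16 members (36.4%, against 15.9%), III held 10 (22.7%, against 15.9%), V 8, IV 5 and II 4. The X-linked gene cdk-4, from 13515856 to 13518911, was at the same time the second lowest in level.

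For 9 members at least 20 nt of exon overlap a protein-coding gene on the opposite strand in the Ensembl annotation of WBcel235, and the kit does not mark the strand. The overlap is long only for knl-3, whose exons share 568 nt (46.2%) with T10B5.3 and 139 nt with T10B5.4, so its counts are uncertain. The members hcp-6 and spd-5 are neighbours on chromosome I and overlap each other by 39 nt. In 8 members the table holds several RefSeq transcripts that share reads. Both transcripts of cyb-3 had nearly equal counts, 32880 and 32881 in control 1 and 37867 and 37868 in arsenite 2, so its gene count holds most reads more than once. For zen-4, 3 transcripts had 8354 to 9607 reads in control 1 and the fourth, of 530 nt, had 1203, with 1044 in control 2 and 1153 and 1228 in arsenite 1 and 2. With the transcript of highest count in place of the gene sum, all 44 fold changes kept their sign, and the median was 0.052.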

How the data were processed

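RNA was sequenced from 4 libraries, control and arsenite replicates 1 and 2. The authors mapped 76-nt single reads with Bowtie to genome and exon junctions, counted reads that mapped uniquely and used RefSeq gene models. The submitters' notes also name CASAVA and WBcel235, with versions not given in the sources used here. Files deposited by the authors hold raw read counts and RPKM per transcript and gene. Gene counts equal the sum over transcripts in 19912 of 19912 genes.

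The count test was that of edgeR 4.0.16 under R 4.3.3: filterByExpr (minimum count 10, minimum total 15), TMM, estimateDisp, glmQLFit (prior count 0.125) and glmQLFTest, fitted on condition alone, and p-values were adjusted by Benjamini-Hochberg over all genes tested. TMM factors ran from 0.9739 to 1.035. Normalised counts are counts over the TMM-scaled library size, times its mean, and a standard error is the absolute log2 fold change divided by the root of its F statistic. Deposited RPKM served for levels only. The scripts were tested on simulated counts. Alternatives were the exact and likelihood ratio tests, DESeq2 1.42.0, other scalings, filters and dispersion, a loess length correction (span 0.5), the replicate block, the top transcript and each library left out.

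Members and lists were chosen with earlier results of these data known. By the rule for naming, values of every library are given for members at an unadjusted p under 0.05, for the 2 of each role with the smallest p and for the highest and lowest level, and for 6 genes of the pathway list counts or fold changes with kbp-4 among them. Values of ndc-80, cki-1 and icp-1 were added after they were seen. A comparison of 76-nt windows between copies and a promoter motif search were planned but not run.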

Additional observations from a re-analysis of the deposited data

How the results depend on the processing

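At an adjusted p of 0.05 the count of all genes called was 0 with the quasi-likelihood test, also with RLE factors, library size only, a CPM filter, robust dispersion, length correction or the top transcript. It was 139 with the exact test, 157 with the likelihood ratio test, 30 with DESeq2, 79 without a filter, 80 with the replicate block, 76 with the block and length correction, and, leaving out any 1 library, 2 to 193 (the lowest without control replicate 2, highest without control replicate 1). Members called stayed at 0 in each of these settings except without control replicate 1. Genes called of the pathway list stayed at 0 except without control replicate 1 and without arsenite replicate 1. Same-numbered libraries deviated together only weakly over all genes (r = 0.0487), and more over the members with orc-1 and cya-1 included (r = 0.366). With 2 pairs and no shared source named in the labels the numbers were not taken as pairs. The replicate block changed no call of a member after adjustment. Members at an unadjusted p under 0.05, all with a positive fold change, went from 1 to 2 with it and to 4 with block and length correction. Over all 13776 genes tested, those with a positive fold change went from 298 to 462 and 439 in the same order. Both counts also moved with 1 library left out. The median of the members was 0.012 with library size only, 0.070 with length correction, 0.071 with block and length correction and, leaving out any 1 library, 0.032 to 0.062 (the lowest without control replicate 1). That of the pathway list was 0.014, 0.069, 0.069 and 0.048 to 0.060 in the same order.

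With library size only, 13 members turned negative: mcm-3 (-0.0069), mcm-5 (-0.0058), mcm-7 (-0.0016), cdc-6 (-0.019), cdt-1 (-0.0055), div-1 (-0.028), rnr-1 (-0.021), rnr-2 (-0.0064), cyb-1 (-0.024), cdk-1 (-0.019), knl-3 (-0.027), bub-1 (-0.010) and spd-5 (-0.0018). Of all genes tested, 36.3% were positive with that scaling, against 51.8% in the main fit. With length correction, alone and with the block, orc-2 turned to 0.00047 and 0.00048 and air-1 to 0.015 and 0.015. Leaving out 1 library changed the sign of 19 members, ndc-80 and pcn-1 among them. Their ranges were -0.023 to 0.14 for mcm-2, -0.028 to 0.17 for mcm-4, -0.052 to 0.13 for mcm-7, -0.042 to 0.00074 for orc-2, -0.0060 to 0.074 for cdt-1, -0.00075 to 0.19 for pcn-1, -0.029 to 0.052 for div-1, -0.064 to 0.10 for rnr-1, -0.049 to 0.079 for cyb-1, -0.065 to 0.027 for cyb-2.2, -0.056 to 0.17 for cyb-3, -0.023 to 0.15 for cyd-1, -0.15 to 0.015 for cdk-2, -0.034 to 0.13 for cdk-4, -0.0074 to 0.11 for knl-1, -0.076 to 0.10 for knl-3, -0.015 to 0.27 for ndc-80, -0.023 to 0.011 for air-1 and -0.011 to 0.14 for spd-1. The cause was not tested. A fit that left out 1 library assumed that the lone sample of its arm varied like the other group. Reads per kilobase from TMM-scaled counts, the alternative for levels, left the order of members with 1 transcript unchanged. They use the same counts and lengths as RPKM, and were not formed for members with several transcripts. With 2 libraries a group and standard errors of 0.057 to 0.088, differences of the median size seen here could not be told from 0.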
